A study of Mus musculus with 13 samples.

Results

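Pax3, Pax6, Pax7, Zic1, Zic2, Zic4 and Zic5 are transcription factor genes that pattern the neural tube along its dorsoventral axis. These 7 genes, of 21938 protein-coding genes on the main chromosomes of the GENCODE M21 annotation, were chosen by name, with earlier results of these data known. Chromatin accessibility was profiled by Omni-ATAC-seq, in which the Tn5 transposase inserts into open DNA, in 13 cultures of mouse oligodendrocyte progenitor cells (OPCs), the cells that divide and mature into myelinating oligodendrocytes. The cultures asked whether OPCs from the brainstem and the dorsal telencephalon (cortex, corpus callosum and hippocampus) differ when grown under the same conditions, and whether the oncohistone H3.3 K27M changes them. Brainstem gave 3 control and 3 K27M libraries and telencephalon 3 control and 4 K27M libraries, each named by a culture number (41, 51, 59 or 61). K27M cultures came from pups in which hGFAP-Cre (AMGFAP-Cre in the labels) had removed a stop cassette from the endogenous H3-3a gene, so that the mutant histone was made from its own locus. Controls were littermates without expression of the mutant histone. The promoter drives Cre in neural stem and progenitor cells, so the mutation arose before the OPC stage and was not limited to OPCs. Tissue of male and female pups on an FVB background was pooled by region and genotype at postnatal days 5 to 7, depleted of endothelial cells and microglia, and immunopanned on an antibody to PDGFRa. All cultures were kept in proliferation medium with forskolin, CNTF, neurotrophin-3 and PDGF, so the controls had these agents too.

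Pax proteins bind DNA through a paired domain, and Pax3, Pax6 and Pax7 carry a homeodomain as well. Pax3 and Pax7 mark dorsal progenitors of the spinal cord, hindbrain and midbrain, whereas Pax6 is used by intermediate progenitors of the neural tube and by the radial glia of the cortex. Zic proteins are zinc-finger factors of the dorsal midline and the developing cerebellum, and their genes lie in head-to-head pairs, Zic1 with Zic4 and Zic2 with Zic5. OPCs arise first from ventral and later from dorsal progenitors, so genes of this kind can carry a trace of where a cell came from.

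A list of broad peaks stood for each library, with between 16879 and 52466 peaks, and the fold enrichment of a peak above local background ranged from 1.34 to 14.6. The lists carry no read counts, so depth is unknown, no counting interval can be given, and an absent peak means that none was called. In bulk ATAC-seq, fewer cells with an open site and a less open site in every cell cannot be told apart. Promoters were the windows from 2 kb upstream to 1 kb downstream of any annotated start. Of the OPC markers, Pdgfra, Olig2 and Sox10 had a promoter peak in all 13 libraries, as did 42.0% of coding genes, and Cspg4 in 3. No library had a promoter peak at Cx3cr1 and Csf1r of microglia, Cdh5 of endothelium, Lum and Dcn of meningeal fibroblasts, or Gabra6 of cerebellar granule cells. Other markers on the same lists did have peaks: P2ry12 of microglia in 12 libraries, Foxc1 and Col1a1 of fibroblasts in 12 each, Atoh1, Neurod1 and Barhl1 of granule cells in 13, 9 and 3, and Cldn5 and Pecam1 of endothelium in 3 and 1. Promoter peaks of the astrocyte marker Gfap and the neuronal markers Snap25 and Syt1 were found in all 13 libraries, those of Rbfox3, Aqp4 and Aldh1l1 in 11, 8 and 4, and an open promoter does not by itself mean that a gene is expressed. In percentile of fold within the library, Olig2 averaged 42.4 in brainstem and 40.3 in telencephalon, Pdgfra 19.9 and 17.1, and Sox10 5.54 and 5.85. Higher averages were found for Gfap (63.9 and 63.4), Snap25 (72.9 and 81.5) and Syt1 (89.4 and 94.8). No tested gene of these marker lists differed between regions at an unadjusted p under 0.05 in the exact permutation test of promoter fold percentile described with Pax3.

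The DNA under the peaks is shown first for 3 promoters, because the members differed in how many libraries had a peak there. RefSeq promoter entries (GRCm38.p6, the assembly of mm10; 250 bases before to 50 bases after a start) matched 5 of the 7 symbols, Pax6, Pax7, Zic1, Zic4 and Zic5. CpG dinucleotides are in capitals, and all sequences are written 5′ to 3′ on the strand of the gene.
Zic1, chr9:91365719-91366018, minus strand: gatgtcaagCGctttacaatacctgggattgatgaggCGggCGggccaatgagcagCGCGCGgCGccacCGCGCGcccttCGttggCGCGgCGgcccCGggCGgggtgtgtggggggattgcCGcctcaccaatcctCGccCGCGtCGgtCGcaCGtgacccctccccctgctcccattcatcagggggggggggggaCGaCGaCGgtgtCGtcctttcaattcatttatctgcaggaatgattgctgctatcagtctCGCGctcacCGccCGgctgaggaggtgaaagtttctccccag
Zic5, chr14:122465609-122465908, minus strand: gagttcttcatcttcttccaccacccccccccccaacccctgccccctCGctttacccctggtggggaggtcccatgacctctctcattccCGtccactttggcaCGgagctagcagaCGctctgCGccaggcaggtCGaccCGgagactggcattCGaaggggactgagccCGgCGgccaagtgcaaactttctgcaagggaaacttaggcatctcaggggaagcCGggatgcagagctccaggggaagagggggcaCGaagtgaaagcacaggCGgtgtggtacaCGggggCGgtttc
Pax7, chr4:139832919-139833218, minus strand: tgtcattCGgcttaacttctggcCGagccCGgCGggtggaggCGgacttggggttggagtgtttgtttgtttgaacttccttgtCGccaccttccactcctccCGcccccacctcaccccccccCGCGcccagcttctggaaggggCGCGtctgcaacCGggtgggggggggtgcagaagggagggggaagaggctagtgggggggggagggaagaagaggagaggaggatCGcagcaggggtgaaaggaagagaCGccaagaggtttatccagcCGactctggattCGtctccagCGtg
The Zic1 entry held 31 CpGs, more than 89.4% of the 32851 RefSeq promoters, whose median was 7. The Pax7 entry held 17 CpGs and the Zic5 entry 15, more than 68.6% and 65.4% of all promoters. The peaks of 10 libraries overlapped the Zic1 entry and those of 8 held all of it, and for the Zic5 entry these numbers were 12 and 2. No called peak overlapped the Pax7 entry, so these CpG counts did not follow the order of detection. Pax6 had entries at 2 of its starts with 18 and 16 CpGs, and the Zic4 entry had 8.

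Detection of a promoter peak put the members in a clear order. Pax6 and Zic2 had one in all 13 libraries, as did 42.0% of coding genes, Zic4 and Zic5 in 12, Zic1 in 11, Pax3 in 5 and Pax7 in 3. No promoter peak at all was found for 30.6% of coding genes. The libraries without a Zic1 peak were control brainstem culture 59 and control telencephalon culture 59, the former also lacked Zic5 and Pax3, and the latter, which had the fewest peaks of all 13 libraries, also lacked Zic4. Pax3 was the member whose detection followed region. At each of the other 6 promoters a peak was called in libraries of both regions. For members called in 11 to 13 libraries this was fixed in advance, since brainstem has 6 libraries and telencephalon 7.

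**Figure D1:**
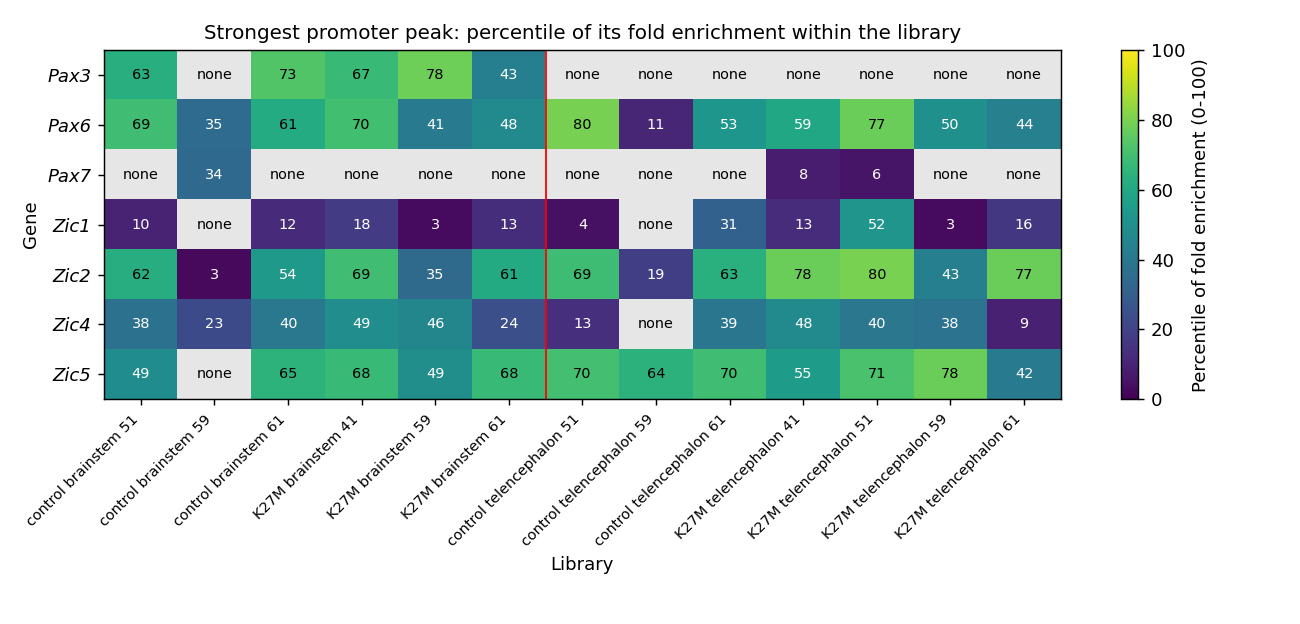
Percentile, within each library, of the fold enrichment of the strongest peak in any promoter window of each gene (rows) in the 13 libraries (columns, the red line separates brainstem from telencephalon); grey cells marked none had no promoter peak. Pax3 has a peak in 5 of 6 brainstem libraries and in 0 of 7 telencephalon libraries, and Pax6 and Zic2 have one in every library.

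Pax3 encodes a dorsal neural tube and neural crest factor (ENSMUSG00000004872.15, mm10 chr1:78101267-78197134, minus strand). Its promoter peak, chr1:78195396-78198124 over an exon of the gene, was called in 5 of 6 brainstem and 0 of 7 telencephalon libraries. Its fold enrichment was 3.19 in control brainstem culture 51 and 3.67 in culture 61, and no peak was called in control brainstem culture 59. In K27M brainstem it was 3.30, 3.60 and 2.77 in cultures 41, 59 and 61. The peak was therefore seen in brainstem OPCs of both genotypes, in 2 of 3 control and 3 of 3 K27M cultures, and the regions overlapped only through control brainstem culture 59.

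To compare strength across lists of different length, each fold was expressed as its percentile within the library, with 0 where no peak was called. The Pax3 promoter stood at percentiles 62.7, 0 and 72.8 in control brainstem cultures 51, 59 and 61 and at 67.2, 77.7 and 43.1 in K27M brainstem cultures 41, 59 and 61, against 0 in all 7 telencephalon libraries. These were middle-ranking peaks of their libraries, not extreme ones. The two-sided Fisher's exact test of detection gave p = 0.00466 (adjusted p = 1 over 962 genes found in 5 to 8 libraries). An unadjusted p under 0.05 with brainstem higher was reached by 8 of those genes, 0.832%, and in either direction by 14, 1.46%. The percentile was 53.9 higher in brainstem than in telencephalon (mean 53.9 ± 29.0 SD, n = 6, against 0 ± 0, n = 7). The two-sided exact permutation test, with region labels exchanged within genotype over 700 arrangements, gave p = 0.00571, or an adjusted p of 1 over 13751 genes. With equal peak numbers the difference was 24.7 (exact permutation p = 0.00571). With each brainstem library set against the telencephalon library of the same genotype and culture number, the peak was in the brainstem library alone in 5 of 6 pairs and in neither in 1. The paired exact permutation p was 0.0625 for both percentile and detection, which is past 0.05, where 6 pairs can give 0.0313 at the least. Of the members, 1 of 6 tested reached an unadjusted p under 0.05 in this test, against 2.76% of all genes tested in either direction and 1.84% with brainstem higher. No gene passed after adjustment in either test, and the smallest p that 700 arrangements can give is 0.00143.

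The detection pattern of Pax3 was shared by few genes. Only Pax3, Hoxa2 and Hoxb3 of the 21938 coding genes had a promoter peak in at least 5 brainstem libraries and in no telencephalon library. Hoxa2 and Hoxb3 are hindbrain segment genes, and their mean percentiles over the brainstem libraries were 1.18 and 19.5, against 53.9 for Pax3. Hoxa2 was called in all 6 brainstem libraries, control brainstem culture 59 included, so the missing Pax3 peak of that library did not go with a missing Hoxa2 peak.

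Taken as a whole, the gene with 50 kb on each side and the promoter included, the Pax3 locus held more peak sequence in brainstem. Called peaks covered 2.05%, 0.742% and 5.53% of the locus in control brainstem cultures 51, 59 and 61 and 4.14%, 2.02% and 2.47% in K27M brainstem cultures 41, 59 and 61. In control telencephalon they covered 0.861%, 0.154% and 1.33% in cultures 51, 59 and 61, and in K27M telencephalon 0.256%, 1.19%, 0.170% and 0% in cultures 41, 51, 59 and 61. Of the brainstem libraries, 5 of 6 lay above every telencephalon library, and control brainstem culture 59 lay among them. The difference was 2.23 percentage points (exact permutation p = 0.00571, adjusted p = 1 over 18646 genes), and Pax3 was the 1 member of 7 with an unadjusted p under 0.05. That level was reached by 0.611% of all genes in either direction and by 0.402% with brainstem higher. It was 1.43 points (exact permutation p = 0.00571) with only the top 16879 peaks by p-value kept in every library. Without the promoter peaks, an alternative chosen after seeing the data, coverage was 0.742% to 4.21% in brainstem and 0% to 1.33% in telencephalon, a difference of 1.53 points (exact permutation p = 0.0129, adjusted p = 1).

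**Figure D2:**
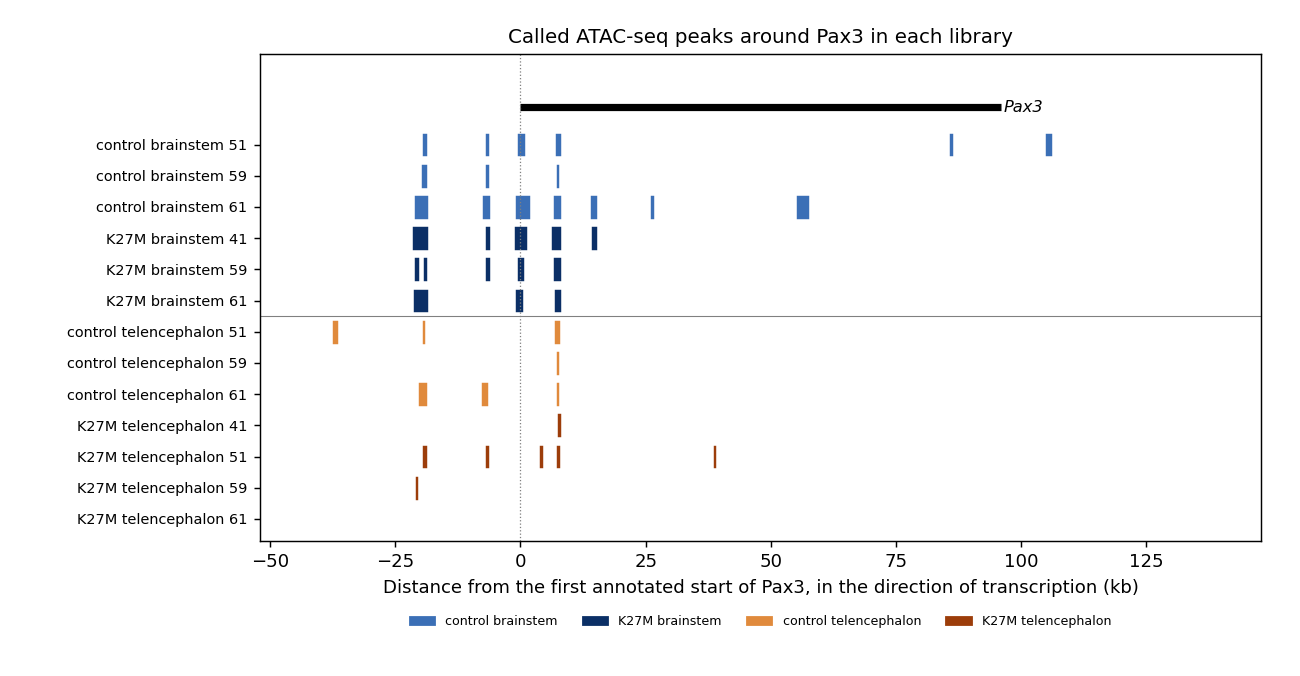
Called peaks (bars, drawn to scale) in each of the 13 libraries (rows, coloured by group) against distance in kb from the first annotated start of Pax3 in the direction of transcription; the black bar is the gene. The peak at the start is present in 5 brainstem libraries and in no telencephalon library, while the intronic peak about 7 kb inside the gene is present in both regions.

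After overlapping peaks (1 bp or more) of the 13 libraries had been merged, the Pax3 locus held 12 merged peaks, none of them in all 13 libraries and 7 in 1 library. The merged peak upstream of the promoter, chr1:78203329-78204729 at -6895 bp from the first start and outside any annotated gene, was called in 5 brainstem and 2 telencephalon libraries. Its fold was 3.28, 3.23 and 2.65 in control brainstem cultures 51, 59 and 61 and 2.98 and 2.39 in K27M brainstem cultures 41 and 59. The telencephalon values were 2.44 in control culture 61 and 2.43 in K27M culture 51. Here control brainstem culture 59, which lacked the promoter peak, did have a peak, and K27M brainstem culture 61 did not.
The sequence at the centre of this peak is shown because the 7 called peaks all overlap it. Of these peaks 4 hold the whole of it and 6 hold its homeodomain core TAATTA, a palindrome and hence read on both strands, which is in capitals.
Pax3 upstream peak, mm10 chr1:78203825-78203974, plus strand: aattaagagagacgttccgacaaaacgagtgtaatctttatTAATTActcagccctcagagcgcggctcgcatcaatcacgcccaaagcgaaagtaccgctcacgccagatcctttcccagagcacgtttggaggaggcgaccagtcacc
The 150 bases held 1 TAATTA, a string found in 3.89% of the central 150 bases of 99647 merged peaks, and the match is a description and not a binding site. Within the gene, an intronic peak (chr1:78189164-78190861) was called in 6 brainstem and 5 telencephalon libraries, and another upstream peak (chr1:78215812-78218646, -20095 bp) in 6 and 4. The locus was thus separated by region at some sites only. At equal peak numbers the promoter peak was still called in 5 brainstem and 0 telencephalon libraries, but the upstream peak in only 1 and 0 and the intronic peak in 5 and 1. With peaks limited to p at most 1e-10 the promoter peak was left in 3 brainstem and 0 telencephalon libraries, and the promoter tests no longer reached 0.05 (Fisher's exact p = 0.0699, exact permutation p = 0.0714).

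Over the 59 distinct merged peaks of the 7 loci, 3 were in all 13 libraries and 28 in 1 library. A merged peak was counted as regional when the shares of libraries with it differed by at least 0.5. Brainstem was higher by this measure at 2 of the 59 peaks, the Pax3 promoter and the Pax3 upstream peak, against 1% of all 99746 merged peaks, and telencephalon at 0, against 0.891%. In the deposited lists the other 6 loci thus held no peak that was regional by this measure. At equal peak numbers the Pax7 intronic peak chr4:139806992-139808267 did pass it. It was then called in 0 brainstem and 4 telencephalon libraries, against 4 and 6 in the deposited lists.

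Pax6, a factor of cortical radial glia and intermediate neural tube progenitors (ENSMUSG00000027168.21, chr2:105668900-105697364, plus strand), had open chromatin in every culture. The strongest promoter peak reached folds of 3.33, 2.83 and 3.34 in control brainstem cultures 51, 59 and 61 and of 3.38, 2.92 and 2.83 in K27M brainstem cultures 41, 59 and 61. In control telencephalon the folds were 3.25, 2.45 and 3.07 in cultures 51, 59 and 61, and in K27M telencephalon 2.96, 3.70, 2.99 and 2.71 in cultures 41, 51, 59 and 61. Both ranges overlapped almost entirely, and the lowest value came from the library with the fewest peaks. The mean percentile was 53.9 ± 14.9 SD in brainstem (n = 6) and 53.4 ± 23.1 SD in telencephalon (n = 7), a difference of 1.23 within genotype (exact permutation p = 0.919, adjusted p = 1).

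The peak common to all libraries, chr2:105674516-105677030, lay 6873 bp inside the gene, at internal starts. The window at the first start had a peak (chr2:105668685-105669642) in 2 libraries, control telencephalon culture 61 and K27M telencephalon culture 41, where the divergent noncoding gene Pax6os1 shares the promoter. Pax6 is transcribed from several promoters, and the peak lists place the constant opening at the internal one.

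Downstream of Pax6, an intron of the neighbouring gene Elp4 held the other constant peak of the locus (chr2:105715080-105716341, 46811 bp from the first start). Elp4 introns are known to contain long-range Pax6 enhancers. The fold there was 3.33, 3.89 and 3.91 in control brainstem cultures 51, 59 and 61 and 3.76, 4.14 and 2.58 in K27M brainstem cultures 41, 59 and 61. It was 3.35, 2.87 and 2.87 in control telencephalon cultures 51, 59 and 61 and 3.80, 4.81, 3.51 and 3.31 in K27M telencephalon cultures 41, 51, 59 and 61. Its mean of 3.55 ± 0.598 SD (n = 13) was above the mean of 3.06 ± 0.332 SD of the promoter peak, and the distal site was the stronger in 11 of 13 libraries. The centre of this peak is printed because it contrasts in base composition with the promoters above: the 150 bases hold no CpG and neither TAATTA nor the E-box CAGCTG, so nothing is in capitals.
Elp4 intron peak, mm10 chr2:105715659-105715808, plus strand: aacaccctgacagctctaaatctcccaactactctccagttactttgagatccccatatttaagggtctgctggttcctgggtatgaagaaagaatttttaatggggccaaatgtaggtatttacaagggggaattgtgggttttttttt
Over the whole peak the ratio of observed to expected CpG was 0.178, against 0.735 at the Pax6 internal promoter peak, 0.844 at the Zic2 promoter peak and a median of 0.571 over merged peaks present in all 13 libraries.

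**Figure D3:**
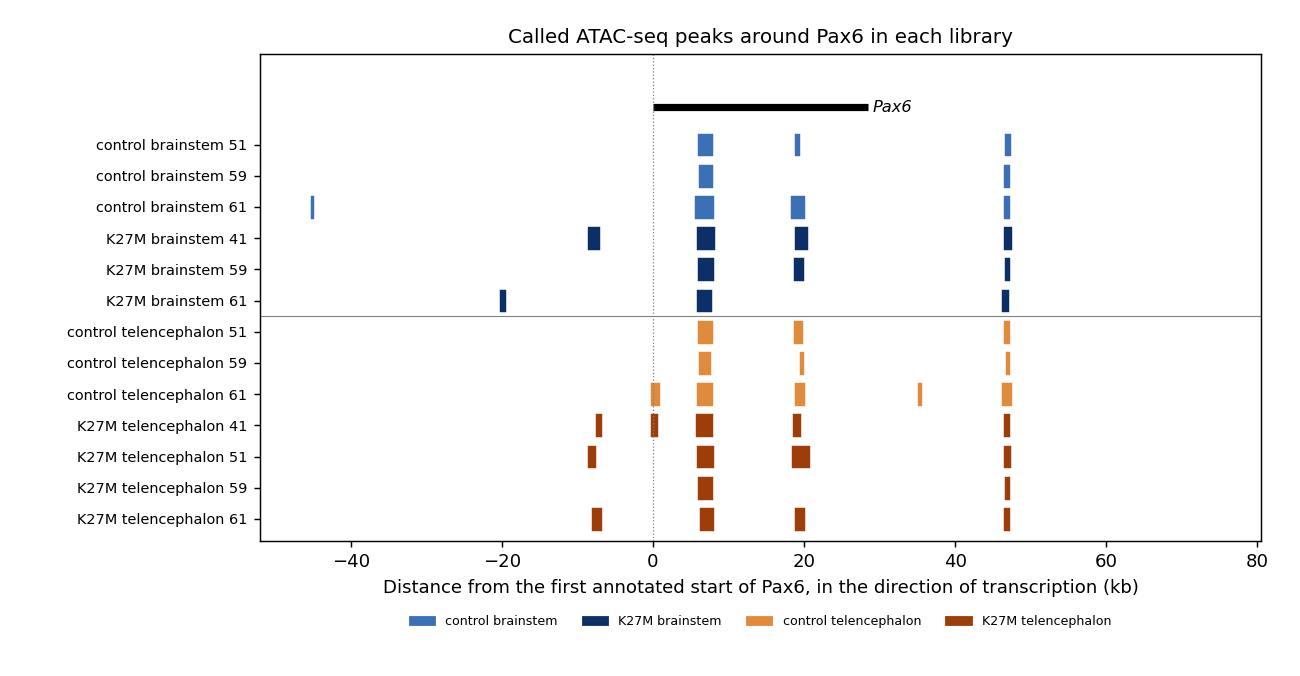
Called peaks (bars, drawn to scale) in each of the 13 libraries (rows, coloured by group) against distance in kb from the first annotated start of Pax6; the black bar is the gene. The internal promoter peak and the peak beyond the gene end are present in all 13 libraries, and the peak at the first start in 2 telencephalon libraries.

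Pax7, the close relative of Pax3 in dorsal progenitors (ENSMUSG00000028736.13, chr4:139737062-139833528, minus strand), had the least promoter opening. Its promoter window had a peak in control brainstem culture 59 (fold 2.83), K27M telencephalon culture 41 (2.37) and K27M telencephalon culture 51 (2.24). These were 3 different places of 471, 397 and 770 bp, so no position in the promoter was open in more than 1 library. In contrast, intronic peaks recurred, at chr4:139770696-139771952 in 11 libraries, at chr4:139806992-139808267 in 10 and at chr4:139821331-139822760 in 8. The Pax7 gene body had at least 1 peak in 12 of 13 libraries. Coverage of the Pax7 locus was 0.387% to 2.65% in brainstem (median 1.02%) and 0% to 2.17% in telencephalon (median 1.16%), which overlapped, and the exact permutation p was 0.797.

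Zic1 (ENSMUSG00000032368.14, chr9:91358058-91365810, minus strand) and Zic4 (ENSMUSG00000036972.14, chr9:91362413-91389348, plus strand), both linked to cerebellar development, overlap head to head, so their values are not independent. The Zic1 start lay in the merged peak chr9:91364038-91366354 of 11 libraries, and another peak, chr9:91361236-91362519, lay in promoter windows of both genes in 9. Zic1 promoter folds ran from 2.35 to 2.52 in the 5 brainstem libraries with a peak and from 2.19 to 2.93 in the 6 telencephalon libraries with one. In percentiles this meant 0, 10.8 and 17.7 as the lowest, median and highest in brainstem and 0, 12.7 and 52.0 in telencephalon. The Zic1 promoter was thus open nearly everywhere but among the weaker peaks of most libraries, and the regions overlapped (exact permutation p = 0.441).

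For Zic4 the strongest promoter peaks reached percentiles of 22.6, 38.8 and 49.1 (lowest, median, highest) in brainstem and 0, 38.3 and 47.8 in telencephalon, again with overlap (p = 0.224 in the exact permutation test). In the pairs of the same genotype and culture number brainstem was higher in 6 of 6, by 12 percentile points on average (paired exact permutation p = 0.0313, the smallest possible). The most frequent peak of this locus was chr9:91380573-91382968, at internal starts of Zic4 and at the promoter of the noncoding gene Gm37477, in 12 libraries.

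Zic2 (ENSMUSG00000061524.8, chr14:122475435-122479852, plus strand) and Zic5 (ENSMUSG00000041703.7, chr14:122456795-122465677, minus strand) form the other pair, and Zic2 is required for closure of the neural tube and for forebrain development. The Zic2 promoter peak, chr14:122473891-122476508, is shared with the antisense gene 2610035F20Rik. In control brainstem cultures 51, 59 and 61 its percentile was 62.2, 2.51 and 54.0, and in K27M brainstem cultures 41, 59 and 61 it was 69.5, 34.6 and 61.3. In control telencephalon cultures 51, 59 and 61 it was 69.1, 18.6 and 63.3, and in K27M telencephalon cultures 41, 51, 59 and 61 it was 77.6, 80.0, 43.1 and 77.5. In each of the 4 groups culture 59 gave the lowest value, and the groups overlapped. The brainstem mean was 47.3 ± 25.0 SD (n = 6) and the telencephalon mean 61.3 ± 22.7 SD (n = 7), a difference of -12.6 (exact permutation p = 0.359). Within pairs of the same genotype and culture number, brainstem was lower in 6 of 6 pairs by a mean of 10.8 percentile points, and the paired exact permutation p was 0.0313, the smallest that 6 pairs can give.

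Zic5 promoter percentiles were 0, 57.0 and 67.9 (lowest, median, highest) in brainstem and 41.6, 69.5 and 77.7 in telencephalon. The 0 was control brainstem culture 59, the only library without the peak (chr14:122462747-122466010), and the exact permutation p was 0.234. The loci of this pair were the most covered of the 7, with a mean over the 13 libraries of 6.44% ± 2.19 SD for Zic2 and 6.39% ± 2.38 SD for Zic5, against a median of 2.12% over coding genes and 1.25% ± 0.854 SD for Pax7. The windows of the pair overlap, so both means rest largely on the same peaks.

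**Figure D4:**
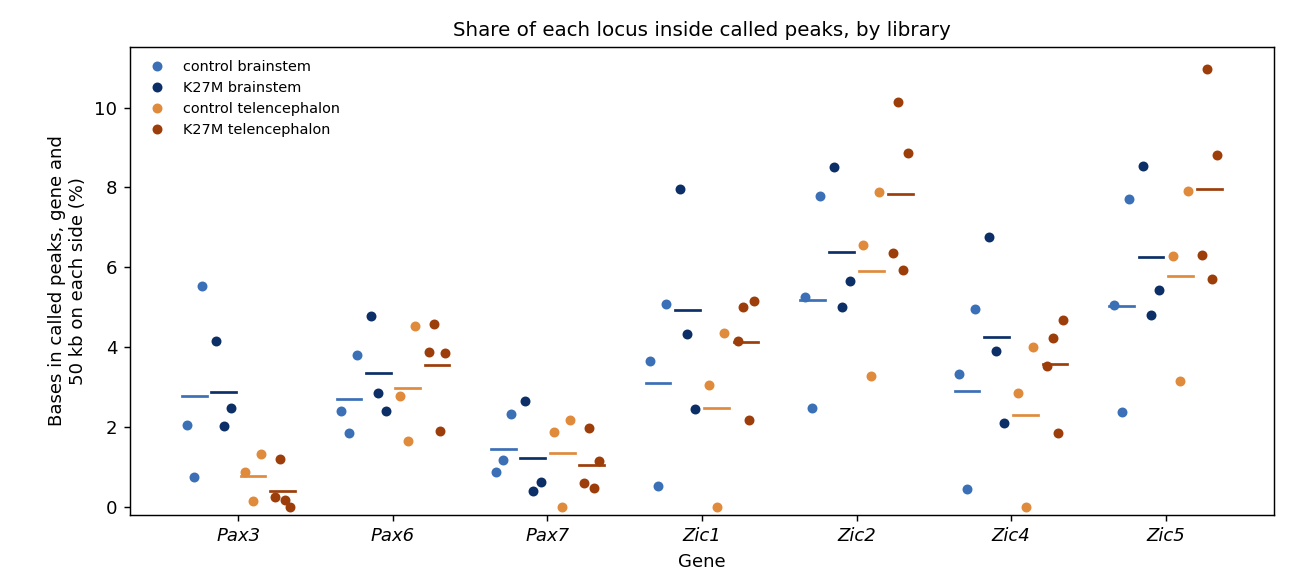
Percent of bases inside called peaks over each gene with 50 kb on each side; points are libraries coloured by group, and short lines are group means (n = 3, 3, 3 and 4). The 7 telencephalon libraries reach at most 1.33% at Pax3, where brainstem reaches 5.53% and only control brainstem culture 59 (0.742%) lies among them, while regions overlap throughout at the other genes.

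Among merged peaks called in all 13 libraries, log2 fold was compared with limma after centring each library on its median. Of 13075 such peaks 4 differed between regions at an adjusted p under 0.05, 0.0306%, and none of the 3 member peaks was among them. The Zic2 promoter peak was lower in brainstem by a log2 difference of -0.14 (SE 0.07, 95% interval -0.29 to 0.0022, limma adjusted p = 0.912). The Pax6 internal promoter differed by -0.02 (interval -0.16 to 0.13) and the Elp4 intron peak by -0.01 (interval -0.20 to 0.17). Both Pax6 intervals lay within 0.20 of no difference on the log2 scale.

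Genotype was compared over all 7 K27M and 6 control libraries, within region for percentile and coverage and pooled over regions for detection. No tested member reached an unadjusted p under 0.05 in percentile or coverage, levels reached by 3.83% and 0.638% of all genes tested. In detection Pax3 alone lay in the tested set, of which 1.25% reached this level, and Pax3 did not. The other members were called in too many or too few libraries for that test to decide. The largest percentile difference was at Zic2, 63.4 ± 18.1 SD in K27M (n = 7) and 44.9 ± 27.6 SD in control (n = 6), a difference of 17.4 within region (exact permutation p = 0.216). Zic4 followed with 36.3 ± 14.6 SD and 25.5 ± 16.4 SD (difference 11.3, p = 0.184 in the same exact test). Promoter peaks of Zic1, Zic4 and Zic5 were called in all 7 K27M libraries and in 4, 5 and 5 of the 6 controls, and the missing ones belonged to cultures numbered 59. For shared peaks, limma called 0 of 13075 by genotype (0%; 613 at an unadjusted p under 0.05) and 0 for the region by genotype interaction (0%; 447 unadjusted). At the Elp4 intron peak the interaction was -0.33 (SE 0.18, 95% interval -0.69 to 0.03, limma adjusted p = 1): the K27M and control folds overlapped in brainstem, and in telencephalon 3 of 4 K27M folds exceeded all 3 controls.

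A single peak separated the genotypes more than any other in these loci. The merged peak chr14:122480974-122483144, outside annotated genes beyond the end of Zic2 (6624 bp from its first start), was called in 6 of 7 K27M and 0 of 6 control libraries. Its folds were 2.30 and 2.11 in K27M brainstem cultures 41 and 61 and 2.45, 2.16, 2.37 and 2.26 in K27M telencephalon cultures 41, 51, 59 and 61. All of these were weak peaks, at percentiles from 1.3 to 12.1 of their libraries, and none was left in any library at equal peak numbers. A share of libraries at least as far apart was found at 13 of 99746 merged peaks with K27M higher, 0.0130%, and at 3 with control higher. No test was made of this difference.
The centre, lying in 5 of the 6 called peaks, is printed with CpG in capitals, and it holds 3 CpGs against 31 in the Zic1 promoter entry.
Zic2 downstream peak, mm10 chr14:122482407-122482556, plus strand: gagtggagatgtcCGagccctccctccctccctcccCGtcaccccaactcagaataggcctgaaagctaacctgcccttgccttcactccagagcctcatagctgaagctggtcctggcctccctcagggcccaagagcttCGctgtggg
The Pax6 locus held a smaller difference, chr2:105660260-105662084 at the noncoding gene Paupar, called in 4 of 7 K27M and 0 of 6 control libraries. Together these were 2 of 59 peaks whose shares differed by at least 0.5 with K27M higher, against 1.25% of all merged peaks, and 0 with control higher, against 0.503%.

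**Figure D5:**
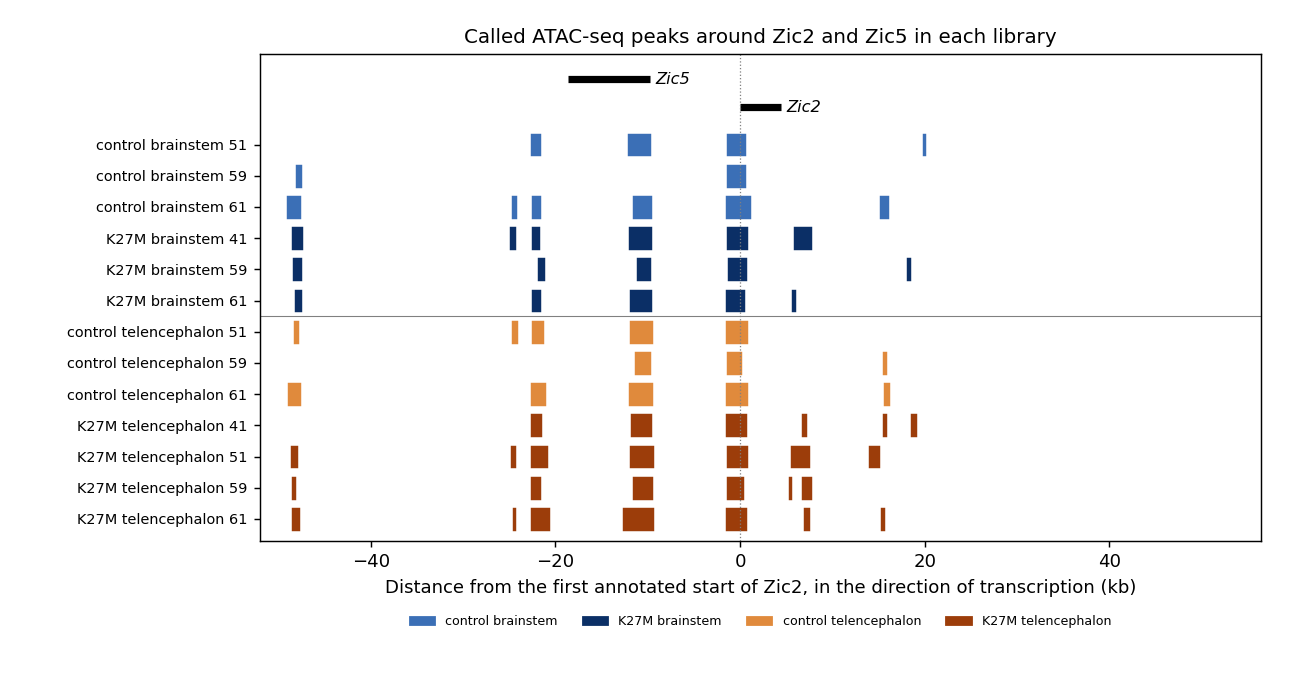
Called peaks (bars, drawn to scale) in each of the 13 libraries (rows, coloured by group) against distance in kb from the first annotated start of Zic2; black bars are Zic2 and Zic5. The promoter peaks recur in almost every library, and the peaks between 5 and 8 kb past the Zic2 start are present in 6 K27M libraries and in no control library.

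Peak yield moved with most of these values. Over the 13 libraries, locus coverage of Pax6, Pax7 and the 4 Zic genes went with the total sequence in peaks (Pearson r from 0.834 to 0.907), whereas for Pax3 r was 0.486. The libraries share their pipeline and differ in the number of called peaks, and these correlations are descriptions. Pax3 had the lowest of these values. Each r pools both regions, so the Pax3 value also carries its difference between regions and does not show coverage free of peak yield. In brainstem, the libraries with most sequence in peaks were control culture 61 (47.3 Mb) and K27M culture 41 (44.4 Mb). They also had the highest Pax3 coverage, 5.53% and 4.14%, while K27M culture 61, with the least (22.1 Mb), had 2.47%.

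Genes whose promoter percentile ran most like that of a member over the 13 libraries were ranked among those at least 1 Mb away. For Pax3 they were Tox3 (r = 0.90), Ess2 (0.90) and Irx3 (0.87), with promoter peaks in 6 and 4, 4 and 0, and 6 and 7 brainstem and telencephalon libraries. For Zic2 they were Pcdhac2 (0.96), Epha5 (0.95) and Stam (0.95), and for Pax6 Clk3, Fyttd1 and Tmem63b (0.92 to 0.93), all 6 with a peak in all 13 libraries. For Zic5 they were Ppp2r5e (0.96), Xrcc4 and Tmem167 (0.93 each), for Zic4 Psmd1 (0.93), Psma6 and Dnase2a (0.91 each), and for Zic1 Phf1 (0.96), Epor (0.95) and Adgrb2 (0.93). Each r is a description over 13 libraries that differ in the number of called peaks, the highest among 13737 to 13747 genes compared, and Pax7 had too few peaks to be ranked.

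Other genes of dorsoventral patterning were counted for comparison. Of the other Pax genes, Pax5 had a promoter peak in all libraries and Pax4 in none, and Pax1 did not reach an unadjusted p under 0.05 between regions (exact permutation p = 0.317). Among 9 roof plate and dorsal genes, Msx1, a target of roof plate BMP signals, was the 1 of 7 tested that reached this level, at percentiles of 77.4 ± 8.47 SD in brainstem and 58.7 ± 17.9 SD in telencephalon (exact permutation p = 0.0429), and Msx2 followed at 0.13. None of 6 tested intermediate progenitor genes did, with Gsx2 (exact permutation p = 0.141) and Dbx2 (0.271) lowest. In detection, however, Gsx2, a patterning gene of the ventral telencephalon, was called at its promoter in 7 of 7 telencephalon libraries and in 2 of 6 from brainstem (Fisher's exact p = 0.021, a gene outside the set adjusted for detection because 9 libraries had the peak), at mean percentiles of 4.24 and 1.54. Of 6 tested ventral and floor plate genes 2 did: Irx3 at 70.7 ± 15.2 SD in brainstem and 25.9 ± 17.5 SD in telencephalon (p = 0.00286 in the exact test), and Nkx6-1 at 25.5 ± 18.6 SD and 6.76 ± 7.99 SD (p = 0.00714 in the same test). The median difference between regions was 10.5 percentile points over the tested genes of the dorsal list and 5.45 over the ventral list, Irx3 included. It was 0.181 over the intermediate list and -2.93 over the 6 tested members, beside 1.39 over all genes. The list names are labels, and the domain in which a gene acts was not measured here. None of the listed genes passed after adjustment, and Pax3 had the largest difference of any gene on these lists.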

How the data were processed

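The 13 libraries were grouped by region and genotype from their titles. Per the submitters' processing notes and the study's methods, the authors trimmed reads with Trim Galore 0.6.7 and cutadapt 3.4, aligned them to mm10 with BWA 0.7.17-r1188 in the nf-core ATAC-seq pipeline 2.1.2, and used MACS2 2.2.7.1 to call broad peaks, 1 library at a time. Duplicates, blacklisted reads and the calling cutoff act before these files, and the cutoff used is not given in the sources used here. The deposited lists give each peak's fold enrichment as a linear ratio to its own local background, its −log10 p-value and −log10 q-value (lowest 1.00), and a score. The deposited score entered no result. The folds in these lists are not scaled between libraries, so those of a shallow and a deep library can differ for technical reasons. Folds were therefore compared as percentiles within a library or after median centring.

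The members, comparison lists and alternatives were chosen with earlier results of these data known. All 7 members are named. Merged peaks are named if they overlap a member promoter, are in all libraries, or are among the 2 per locus with the largest difference in share of libraries between regions or genotypes (at least 0.5). Other peaks found in 8 or more libraries, and the recurrent Pax7 and Zic4 peaks, were picked after their values were seen. The 3 most similar genes per member and up to 2 genes per list by smallest p are named, except 1 gene that is not reported here. Detection was tested with Fisher's exact test on genes found in 5 to 8 libraries, and percentile (genes found in at least 4 libraries) and locus coverage with exact permutation tests over 700 arrangements. Log2 fold of shared peaks was tested with limma 3.58.1 in R 4.3.3, with Benjamini-Hochberg adjustment over all features and a threshold of 0.05. Tests were checked on simulated data. The simulated percentile and coverage values were normally distributed, so the check does not cover values with many zeros, such as the Pax3 percentiles. Promoters and genes came from GENCODE M21, coordinates are 1-based on mm10, and 1 bp counted as overlap. The study's methods state that control and K27M cultures of a region were matched and assayed together. They add that its accessibility tests accounted for matched cultures where possible. Equal culture numbers were therefore taken as pairs, and blocked values are given where they change a call. The numbers are not said to mark the pairs. According to the methods, brainstem and telencephalon were both taken from the dissected brains of litters. They do not describe cultures paired across regions, so the paired region tests rest on the assumption that a number marks the same litter. Only 4 of 16 same-numbered pairs had deviations correlated above 0.1 in promoter percentile (6 in coverage, 4 in shared peak fold). Nothing states whether cultures of 1 group share animals, so p-values measure only the spread between these cultures. Alternatives were equal peak numbers, p at most 1e-10, other windows, other centring, a replicate block and leaving out each library. Python 3.11.15 was used.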

Additional observations from a re-analysis of the deposited data

Results flagged for a closer look

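One value of a member stood apart from the other libraries of its group. In K27M telencephalon, the Zic2 promoter peak of culture 59 was at percentile 43.1 of its library, whereas cultures 41, 51 and 61 lay at 77.6, 80.0 and 77.5, so the gap from the lowest to the next value took up nearly the whole range of the 4 libraries. In all, 18 sets of 4 values were examined in this way and 1 was singled out, and chance singles out about 1 in 20.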

How the results depend on the processing

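The 51 values of the members were recomputed under each alternative, giving 971 values, of which 955 stayed on the same side of p = 0.05 (exact permutation, Fisher's exact or limma tests). They include members outside the tested sets. Detection of Pax6 and Zic2, found in all 13 libraries, could not change when a library was left out. The 955 are therefore a description and not a measure of stability. No called difference changed direction, and 69 values changed sign, all of them of differences that had not been called. The Pax3 difference between regions stayed at an exact p of at most 0.0257 when any 1 library was left out (percentile 47.0 to 65.2, coverage 1.54 to 2.74 points). It missed 0.05 with peaks limited to p at most 1e-10, with a coverage difference of 0.737 points and a percentile difference of 8.65 (both exact p = 0.0714). Apart from the paired tests, values that came below 0.05 only under an alternative were the coverage of Zic1 (0.866 points) and Zic4 (0.773 points) at equal peak numbers (both exact p = 0.0286), relative coverage of Zic5 (-0.503, exact p = 0.04), the Zic2 promoter peak by region (-0.19, -0.18 and -0.17 in log2 fold without control brainstem culture 51, K27M brainstem culture 61 and K27M telencephalon culture 59, limma p 0.0154 to 0.0277), and the Elp4 intron interaction (-0.47, -0.42 and -0.38 without K27M brainstem culture 59, control telencephalon culture 51 and K27M telencephalon culture 61, limma p 0.0136 to 0.0487). The cause was not tested.

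The 4 shared peaks called by region became 0 without centring, 1 at equal peak numbers, 0 with stricter peaks, 0 with an exact permutation test, and 0 to 4 with 1 library left out (0 to 2 in 9 of 13 cases, and within 1.5 times of 4 only without control brainstem culture 51 or 59, control telencephalon culture 59 or K27M telencephalon culture 41). The exact permutation test could hardly call any peak after adjustment over 13075 peaks, because 700 arrangements give no p below 0.00143, so its 0 decides nothing. By genotype, leaving out 1 library gave 0 to 1 calls, the 1 without control telencephalon culture 61 and the 1 without K27M telencephalon culture 59. All other counts of adjusted calls stayed at 0.

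With culture number as a replicate block, 3 shared peaks were called by region. Pax3 percentile (53.9) and detection (0.833) had exact p = 0.0625, Pax3 coverage (2.36 points) p = 0.0313, and the Zic2 (-10.8) and Zic4 (12) percentiles p = 0.0313 in the same exact test. The block changed no other call by region. By genotype the same-numbered pairs were too few for the exact test to go below 0.0625. The blocked percentile, coverage and detection could therefore call no genotype difference. Because depth is unknown, an uncalled peak cannot be told from a shallow library.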
